A study of Mus musculus with 15 samples.

Results

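Sterol synthesis and lipogenesis were followed through 39 genes of mouse liver, out of the 22032 gene symbols that the arrays measured. The members were chosen by name, as the non-control probes whose gene name in the scanner files is that of a listed enzyme or regulator, and the rule uses no measured value, although the list was drawn up with earlier results of these data known. They make up a sterol branch of 17 enzymes, a fatty acid branch of 16 genes of fatty acid and glycerolipid synthesis, and a set of 6. These 6, called regulators below, are Srebf1, Srebf2, Insig1, Insig2, Scap and the sterol carrier Stard4. All 39 were found on the array. Liver RNA of male CD1 mice was hybridised with 1 dye, on 4 arrays for control mice (group C), 5 for DEN mice (group T) and 6 for DEN mice with Gas1 (group G). Mice of group C were injected with saline and later received the empty plasmid. Mice of group T were given DEN (diethylnitrosamine, a carcinogen of the liver) at 25 µg per g of body weight on day 15 and then the empty plasmid. Mice of group G had the same DEN and the pcDNA3/CAG-HAGas1 plasmid, which carries the growth arrest gene Gas1 under the CAG promoter. Every mouse, controls included, was put through hydrodynamic gene delivery (HGD) of 50 µg of plasmid each week from week 28 to week 34, and was killed in week 35. The sample records give an age of 10 weeks instead. HGD reaches part of the liver cells, mainly those near blood vessels, so that the RNA of group G mixes transfected and other cells. Each array held bulk liver RNA, in which fewer cells of a type and less RNA per cell cannot be told apart.

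Liver cells make cholesterol from acetyl-CoA through mevalonate, farnesyl diphosphate, squalene and lanosterol, and fatty acids from citrate through malonyl-CoA, followed by elongation and desaturation. Transcription of both routes is driven by SREBP factors, encoded by Srebf1 and Srebf2, which SCAP escorts from the endoplasmic reticulum to the Golgi when sterols are low and which the INSIG proteins hold back when sterols are high. Feeding and insulin raise the fatty acid route through SREBP, ChREBP (encoded by Mlxipl) and LXR, and fasting lowers it.

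Arrays 3 and 4 of group C carry the same RNA code, as do arrays 4 and 5 of group T, and each such pair was averaged, which gives 3, 4 and 6 mice. Values below are log2 signals after background correction and quantile normalization, and a difference of 1 on this scale is a doubling. Between 15707 and 29765 of the 59305 spots of an array were well above background. Of the 39 members, 37 were well above background on every array, the exceptions being Srebf2 and Scd2. Hmgcs1 and Sqle have no valid spot in mice C2, T2, G4 and G5, and these mice were dropped from the fit of both genes. Gas1 itself did not tell the groups apart, with a log2 difference of 0.08 in G against T (standard error 0.08, adjusted p = 0.768, limma), and mice are grouped as labelled. Where its probe lies relative to the transgene was not tested. The arrays lay on 2 slides that each held all 3 groups. Of each pair of arrays with the same RNA code, 1 array lay on slide 1 and the other on slide 2. The slides thus share a mouse of C and a mouse of T, and are not independent sets of mice. Signals of different genes come from different probes and were not compared with each other.

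The first question was how both routes differed between livers that had received DEN and the saline controls. In group T, 7 members were called lower than in group C and 1 was called higher (limma, adjusted p under 0.05 over all 22032 genes), where 2.38% of all genes were called in either direction. The 7 were Pmvk, Tm7sf2 and Hsd17b7 of the sterol branch and Scd1, Elovl5, Elovl6 and Me1 of the fatty acid branch, and Scd2 was the gene called higher. Over all genes, 1.17% were called lower in T and 1.22% higher. Among the 8493 genes well above background on every array, 2.43% were called lower and 1.54% higher. None of the 6 regulators was called, although 2 of them had an unadjusted p under 0.05 and a negative change. At an unadjusted p under 0.05, 25 members were lower, against 9.48% of all genes, and 1 was higher, against 10.8%. Without a threshold, 35 of the 39 log2 changes were below 0, against 47.9% of all genes. The mice of T lay wholly below those of C for 22 members and wholly above for 1, Scd2, against 8.61% and 10.5% of all genes. Of the genes well above background on every array, 11.1% lay wholly below. The count of calls depended on single mice, and so did the share of all genes called. It was 4 without C1 (0.567% of all genes), 3 without C2 (0.472%), 5 without T2 (0.867%) and 3 without T3 (0.404%). By the methods' t-test it was 0 after adjustment, as over all genes. That test had 18 members at an unadjusted p under 0.05, for which no share of all genes was taken. With the slide as a term and the RNA code of the 15 arrays as a random block the count was 13 (3.63% of all genes), Insig2, Mvd, Sc5d and Acly among them. With median scaling it was 2, both higher in T, so that none of the 7 lower calls held there, where 12.9% of all genes were called. Within slide 1 alone the count was 1, Insig2 (0.218% of all genes), and within slide 2 alone it was 1, Scd1 (0.0772%).

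By its median, the fatty acid branch had the lower change, although within a mouse the difference between the branches overlapped between C and T. Its median log2 change in T against C was -0.89, with 15 of 16 genes below 0, and that of the sterol branch was -0.49, with 16 of 17 below 0, where the median of all genes was 0.01, but the sterol median turned to 0.33 when the arrays were scaled to a common median only. That scaling moved the median of all genes to 0.12. Relative to this shift the sterol branch stood at 0.21 and the fatty acid branch at -0.28. Single members moved by unlike amounts, Ebp from -0.25 to 0.78, Scd1 from -2.19 to -1.18 and Srebf2, near background, from 0.00 to 0.15. The shift of all genes is thus not that of each member. Under the scanner's processed signal scaled on its 75th percentile, the sterol and fatty acid medians were -0.44 and -1.03. All genes moved by -0.40 there, and the relative values were -0.05 and -0.64. Scaled on the 13155 probes well above background on every array, the medians were -0.44 and -0.93. With all genes at -0.65 there, the relative values were 0.21 and -0.28. After cyclic loess, which left all genes at 0.00, both branches stayed below 0, at -0.52 and -0.70. Relative to all genes, the fatty acid branch was below 0 under each of these scalings, and the sterol branch was not. Within slide 1 the medians were -0.45 for sterol and -0.70 for fatty acid genes, and within slide 2 they were -0.49 and -0.63. These slides have a mouse of C and a mouse of T in common. The 6 regulators had a median of -0.20.

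**Figure D1:**
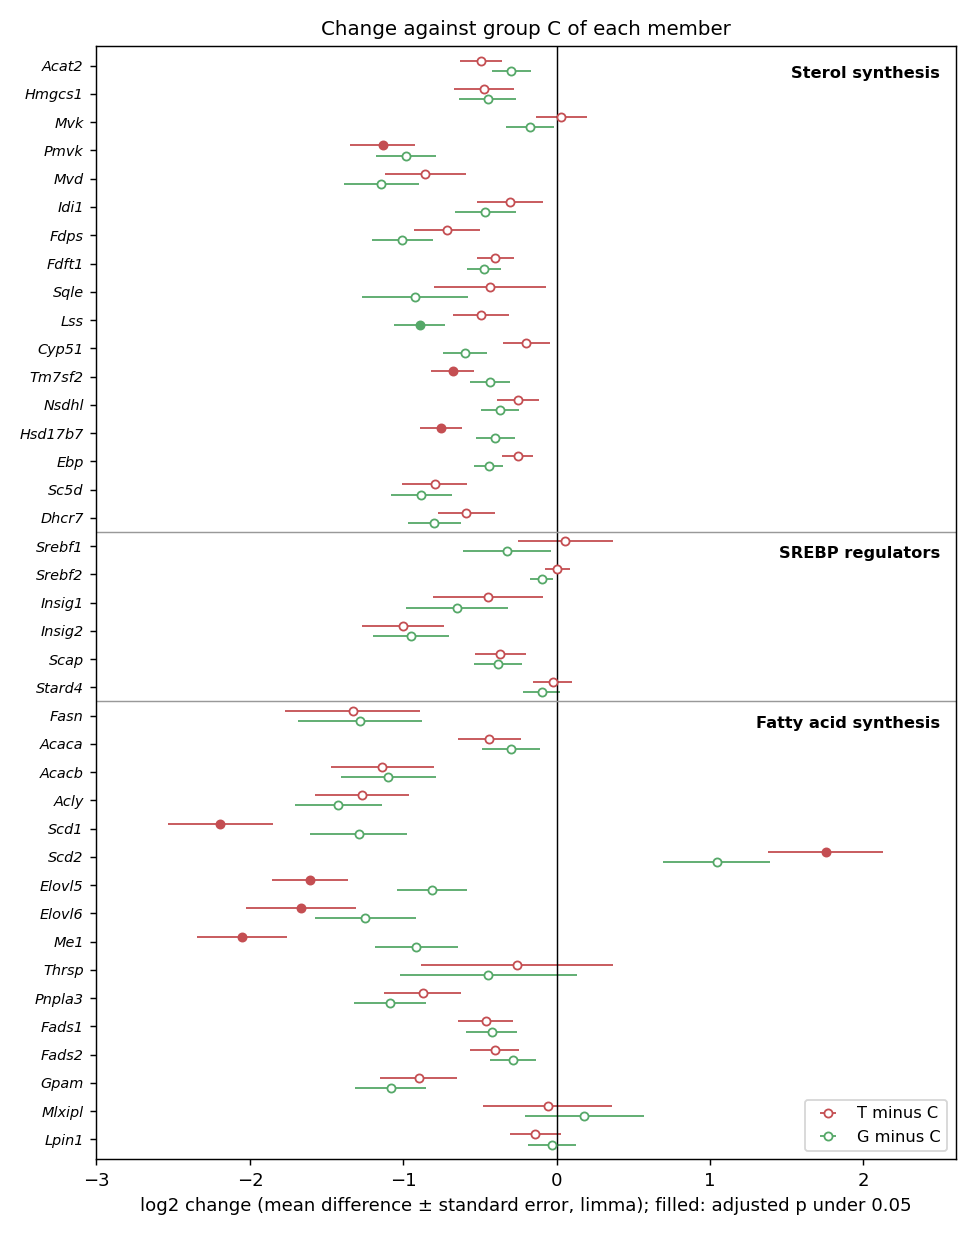
Log2 change against group C for each of the 39 members (x axis, with the standard error from limma), in group T in red and group G in green, by set from top to bottom. Filled points have an adjusted p under 0.05, and most points lie left of 0 after quantile normalization, while the sterol median for T, -0.49 here, was 0.33 with median scaling.

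The stretches of DNA before the start sites of the genes called in T against C are shown because SREBP and its partners act there. Of the 39 members, 32 had a promoter in the RefSeq table used here (GRCm38.p6), among them 6 of the 8 called. The members without an entry were Fads1, Scd1, Sqle, Stard4, Scd2, Fdps and Fdft1. Each line gives the 250 bases before the start, 5′ to 3′, from the most upstream start listed. Hmgcs1, which was not called, stands first, as it holds a sterol element. Capitals mark TCACNCCAC, a form of the sterol regulatory element, CACGTG, the E-box, and CCAAT, the NF-Y box, each searched on both strands, so that a box on the other strand reads ATTGG. No base belonged to more than 1 match.
Hmgcs1, chr13:119690101-119690350, plus strand: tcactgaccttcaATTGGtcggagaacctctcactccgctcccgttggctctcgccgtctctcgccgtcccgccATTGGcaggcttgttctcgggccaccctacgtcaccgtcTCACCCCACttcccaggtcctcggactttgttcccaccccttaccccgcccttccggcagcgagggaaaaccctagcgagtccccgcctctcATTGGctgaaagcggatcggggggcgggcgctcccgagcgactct
Pmvk, chr3:89454291-89454540, plus strand: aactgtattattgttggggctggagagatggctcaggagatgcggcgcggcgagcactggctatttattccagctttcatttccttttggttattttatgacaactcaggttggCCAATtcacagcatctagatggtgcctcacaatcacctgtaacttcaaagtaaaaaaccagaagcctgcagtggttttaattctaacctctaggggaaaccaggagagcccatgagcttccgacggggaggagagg
Tm7sf2, chr19:6067851-6068100, minus strand: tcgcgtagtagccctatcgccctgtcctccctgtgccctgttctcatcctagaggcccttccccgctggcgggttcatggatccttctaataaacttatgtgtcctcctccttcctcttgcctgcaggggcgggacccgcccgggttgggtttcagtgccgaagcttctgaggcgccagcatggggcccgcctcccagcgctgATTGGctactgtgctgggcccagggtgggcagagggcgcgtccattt
Hsd17b7, chr1:169969206-169969455, minus strand: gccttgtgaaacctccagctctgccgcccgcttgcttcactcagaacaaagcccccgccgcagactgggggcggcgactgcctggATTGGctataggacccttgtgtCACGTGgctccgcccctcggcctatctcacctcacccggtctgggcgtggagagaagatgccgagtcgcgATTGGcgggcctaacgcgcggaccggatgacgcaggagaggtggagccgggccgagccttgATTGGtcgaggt
Elovl5, chr9:77917115-77917364, plus strand: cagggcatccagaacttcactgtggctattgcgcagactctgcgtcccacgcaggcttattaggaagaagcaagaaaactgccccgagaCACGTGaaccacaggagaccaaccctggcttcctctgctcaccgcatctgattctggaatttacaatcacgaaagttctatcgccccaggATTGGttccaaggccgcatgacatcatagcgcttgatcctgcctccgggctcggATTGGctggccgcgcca
Elovl6, chr3:129532136-129532385, plus strand: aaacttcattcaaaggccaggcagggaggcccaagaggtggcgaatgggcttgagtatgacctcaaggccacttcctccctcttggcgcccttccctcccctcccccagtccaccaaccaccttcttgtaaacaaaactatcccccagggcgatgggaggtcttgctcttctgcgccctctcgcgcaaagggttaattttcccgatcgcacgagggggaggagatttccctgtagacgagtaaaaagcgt
Me1, chr9:86695915-86696164, minus strand: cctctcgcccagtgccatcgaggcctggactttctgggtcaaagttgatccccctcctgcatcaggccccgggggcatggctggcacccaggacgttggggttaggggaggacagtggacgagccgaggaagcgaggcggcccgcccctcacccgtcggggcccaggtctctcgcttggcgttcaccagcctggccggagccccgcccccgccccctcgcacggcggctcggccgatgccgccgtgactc

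Of these 7 promoters, those of Pmvk, Tm7sf2, Hsd17b7 and Elovl5 held a CCAAT box, as did that of Hmgcs1, while the windows shown for Elovl6 and Me1 hold none of the motifs. Those of Hsd17b7 and Elovl5 also hold CACGTG. Counted over genes, with every listed start of a gene taken in, a CCAAT box was found in 25 of the 32 members (78.1%) and in 37.49% of all 27025 genes with a window of this length. By branch these were 13 of 14 sterol genes, 4 of 5 regulators and 8 of 13 fatty acid genes. CACGTG was present in 7 members, Dhcr7, Elovl5, Hsd17b7, Insig1, Mlxipl, Sc5d and Scap, or 21.9% against 6.86% of all genes. TCACNCCAC was found in Hmgcs1 and Mlxipl, or 6.2% against 1.22%. A match describes the letters of the window only.

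Among the early enzymes of the sterol branch, Pmvk (phosphomevalonate kinase, probes at chr3:89272739-89272798 and chr3:89272867-89272926 of mm9) was the one called in T. Its signal was 12.54, 12.28 and 12.53 in mice C1 to C3, 11.70, 11.34, 10.85 and 11.37 in T1 to T4, and 11.10 to 12.03 (median 11.47) in group G. Every mouse of T and of G lay below every mouse of C. Group means were 12.45 ± 0.15 (SD, n = 3), 11.31 ± 0.35 (n = 4) and 11.46 ± 0.32 (n = 6), so that Pmvk was 2.19-fold lower in T (log2 -1.13, SE 0.21, adjusted p = 0.0212, limma). The change was -1.08 within slide 1 and -1.20 within slide 2, and with median scaling it shrank to -0.16. The call was lost without C1, C2, T3 or T4. Hmgcs1 (HMG-CoA synthase of the cytosol) was measured in 2, 3 and 4 mice, at 13.11 and 12.96 in C1 and C3, 12.73, 12.12 and 12.82 in T1, T3 and T4, and 12.39 to 12.77 (median 12.59) in group G. The few T mice lay below those of C, but the difference was not called (log2 -0.48, SE 0.20, adjusted p = 0.218) and stood at 0.34 with median scaling. Mvd, the decarboxylase after Pmvk, was at 9.72, 9.51 and 9.17 in C, 8.96, 8.71, 8.11 and 8.66 in T and 7.66 to 8.81 (median 8.37) in G. Neither T nor G overlapped C for Mvd, and the T difference of -0.86 (SE 0.27, adjusted p = 0.101) stood at 0.02 with median scaling and was called with the slide and RNA code in the fit (adjusted p = 0.0449). Farnesyl diphosphate synthase, Fdps, was at 13.17, 12.94 and 13.19 in C, 12.66, 12.42, 11.71 and 12.76 in T, with T3 lowest, and 11.79 to 12.35 (median 12.06) in G. Here too both groups lay below C, with a difference of -0.71 in T (SE 0.21, adjusted p = 0.0911), or 0.27 with median scaling. Mvk, the kinase before Pmvk, had the highest change of the branch, at 0.03 (adjusted p = 0.95), and its 2 probes differed in sign.

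Of the enzymes from squalene onward, Tm7sf2 and Hsd17b7 were called in T. Squalene epoxidase, Sqle, was at 11.90 and 11.64 in C1 and C3, 11.45, 10.99 and 11.58 in T1, T3 and T4, and 10.18 to 11.52 (median 10.84) in the 4 measured mice of G. Its difference of -0.43 in T had a standard error of 0.37 (limma, adjusted p = 0.571) and was 0.38 with median scaling. It shrank to -0.17 when the outlier-flagged spots were kept, and was -0.14 from the authors' log2 values. Lanosterol synthase, Lss, with a probe at chr10:76015992-76016051, was at 9.04, 8.46 and 9.07 in C, 8.56, 8.34, 8.06 and 8.49 in T and 7.70 to 8.26 (median 7.91) in G. Mouse C2 lay inside the range of T, and no mouse of G reached C. The sterol reductases Tm7sf2 and Hsd17b7 followed a different order, C above G above T on average. Tm7sf2, with probes at chr19:6062882-6062941 and chr19:6063541-6063600, was at 11.49, 11.52 and 11.70 in C, 11.07, 10.99, 10.67 and 10.83 in T and 10.71 to 11.30 (median 11.25) in G. Hsd17b7, with probes at chr1:171880203-171880262 and chr1:171883182-171883241, was at 8.66, 8.87 and 8.96 in C, 8.32, 8.08, 7.78 and 8.13 in T and 8.16 to 8.68 (median 8.48) in G. For both, T and C did not overlap, and Tm7sf2 was 1.6-fold lower in T (adjusted p = 0.0301) and Hsd17b7 1.68-fold lower (adjusted p = 0.0196), whereas median scaling put them at 0.29 and 0.03 on the log2 scale. The call of Tm7sf2 was lost when any of C1, C2, C3, T2, T3 or T4 was left out, and that of Hsd17b7 without C2 or T3. In slides 1 and 2 the log2 changes were -0.70 and -0.74 for Tm7sf2, and -0.78 and -0.76 for Hsd17b7.

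The last steps were represented by Ebp, Sc5d and Dhcr7, an isomerase, a desaturase and the final reductase of the route. Ebp was at 14.77, 15.03 and 14.97 in C, 14.72, 14.64, 14.42 and 14.89 in T and 14.37 to 14.61 (median 14.50) in G. T4 lay within the range of C, while all of G lay below it. Sc5d was at 12.29, 12.33 and 11.98 in C, 11.92, 11.09, 11.11 and 11.50 in T and 10.97 to 11.82 (median 11.28) in G, with both groups below C. Dhcr7 was at 9.12, 8.94 and 9.15 in C, 8.52, 8.53, 8.16 and 8.71 in T and 7.84 to 8.67 (median 8.36) in G. Here again no mouse of T or G reached those of C. The T differences were -0.25, -0.80 and -0.59 (standard errors 0.10, 0.21 and 0.19; adjusted p = 0.188, 0.0655 and 0.106, limma), and 0.78, 0.18 and 0.24 with median scaling, while Sc5d was called with the slide and RNA code in the fit (adjusted p = 0.0306). The other sterol genes, Acat2, Idi1, Fdft1, Cyp51 and Nsdhl, had T differences of -0.50 to -0.20 and none was called. Of the 2 probes of Fdft1, 1 was well above background on no array of C or T, and the other gave -0.62.

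Among the regulators, the mRNAs of the SREBP factors themselves were not called. Srebf1 was at 8.33, 9.11 and 8.17 in C, 8.54, 8.77, 8.11 and 8.96 in T and 7.57 to 8.89 (median 8.11) in G. Srebf2 was near background, at 6.47, 6.40 and 6.46 in C, 6.48, 6.33, 6.50 and 6.49 in T and 6.16 to 6.48 (median 6.36) in G. The 3 groups overlapped for both genes, and the differences in T were 0.06 (SE 0.31, adjusted p = 0.948) for Srebf1 and 0.00 (SE 0.08, adjusted p = 0.985) for Srebf2. With median scaling Srebf1 stood at 0.88 (limma, adjusted p = 0.0586), where all genes stood at 0.12. Other members also moved upward by more than all genes there, such as Lss from -0.49 to 0.30 and Dhcr7 from -0.59 to 0.24. Under the processed signal and the scaling on detected probes Srebf2 was at -0.43 and -0.62, close to the shifts of all genes of -0.40 and -0.65. Of the 2 Srebf2 probes, 1 was well above background on no array. Insig2, the form of INSIG most tied to liver, showed the largest difference of the regulators. It was at 12.15, 11.72 and 11.65 in C, 11.57, 10.34, 10.88 and 10.54 in T and 10.40 to 11.29 (median 10.94) in G. Every T and G mouse lay below the C mice, with log2 differences of -1.003 in T (SE 0.27, adjusted p = 0.0668) and -0.95 in G (SE 0.25, adjusted p = 0.125), neither of them called. With median scaling these were -0.02 and -0.11, and with the slide and RNA code in the fit Insig2 was called in T (adjusted p = 0.0415). Insig1, itself a target of SREBP, was at 10.81, 11.34 and 10.61 in C, 11.14, 11.08, 9.62 and 10.06 in T and 9.66 to 10.69 (median 10.45) in G. Mice T1 and T2 were within the range of C and T3 and T4 below it, so that the difference of -0.45 (SE 0.36, adjusted p = 0.539) was not called, and it was 0.52 with median scaling. Scap, with -0.37, and Stard4, a sterol carrier, with -0.03, were not called either.

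In the fatty acid branch, Me1, which supplies NADPH, the desaturase Scd1 and the elongases Elovl5 and Elovl6 were called lower in T. Me1, the malic enzyme of the cytosol, was at 12.11, 11.96 and 11.65 in C, 10.56, 9.15, 9.63 and 10.08 in T and 10.30 to 11.28 (median 11.12) in G. All T and G mice lay below the C mice, and G4 alone of the G mice lay below the highest T mouse. Means were 11.90 ± 0.24 (SD, n = 3), 9.85 ± 0.61 (n = 4) and 10.99 ± 0.35 (n = 6), and Me1 was 4.14-fold lower in T (log2 -2.05, SE 0.29, adjusted p = 0.00992, limma). Its 3 probes, at chr9:86475077-86475136, chr9:86480571-86480630 and chr9:86475215-86475274 of mm9, gave -2.13, -2.10 and -2.18 on their own, with spots flagged on 0, 1 and 2 arrays. Acly, which cuts citrate into acetyl-CoA, was at 11.94, 12.26 and 11.51 in C, 10.77, 10.31, 10.15 and 11.31 in T and 9.97 to 11.17 (median 10.50) in G. T and G lay below C, and the T difference of -1.27 (SE 0.31) just missed the threshold at an adjusted p of 0.0508. It was called with the slide and RNA code in the fit (0.0316) and stood at -0.28 with median scaling (adjusted p = 0.66). Fasn, the fatty acid synthase, was at 10.57, 10.90 and 10.18 in C, 9.43, 8.83, 8.45 and 10.17 in T and 8.41 to 10.11 (median 9.42) in G. T4 was just below the lowest C mouse, the other T mice were lower, and the difference of -1.33 had a standard error of 0.44 (adjusted p = 0.118) and was -0.38 with median scaling. The carboxylase genes Acaca and Acacb were at -0.44 and -1.14 and were not called.

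The desaturase Scd1, which makes oleate and is a main target of SREBP in liver, had the lowest log2 change of the members in T. It was at 15.11, 14.24 and 14.80 in C, 13.004, 12.73, 11.94 and 12.41 in T and 12.81 to 14.40 (median 13.29) in G (probe at chr19:44469387-44469446). All T mice lay below all C mice, and G6 alone of the G mice reached the range of C. Group means of 14.71 ± 0.44, 12.52 ± 0.46 and 13.42 ± 0.55 gave a 4.57-fold decrease in T (log2 -2.19, SE 0.34, adjusted p = 0.0114). Scd2, its neighbour on chromosome 19 and known as the form of brain and of young liver (probe at chr19:44381024-44381083), went the other way. It was at 7.02, 6.36 and 6.66 in C, 7.92, 9.13, 8.70 and 7.99 in T and 7.06 to 8.75 (median 7.67) in G. All T and G mice lay above all C mice, and Scd2 was 3.37-fold higher in T (log2 1.75, SE 0.38, adjusted p = 0.0337). Scd2 was well above background on 3 of 4 arrays of C and on all arrays of T and G. The fold rests on C values close to background, and the log2 difference was 2.94 with the processed signal and 2.19 with a normexp offset of 16. Each gene had 1 probe. Scd1 was at -1.94 within slide 1 and -2.52 within slide 2, and Scd2 at 2.06 and 1.35. The call of Scd2 was lost without C1, C2, C3, T2, T3 or T4, and with cyclic loess.

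The elongases Elovl5, which acts on polyunsaturated chains, and Elovl6, which acts on palmitate, were also called lower in T. Elovl5 was at 12.74, 12.73 and 12.45 in C, 11.70, 10.35, 11.001 and 11.07 in T and 11.44 to 12.23 (median 11.83) in G. The groups T and G both lay below C, and T2 was the lowest of all mice. Elovl6 was at 11.54, 11.49 and 11.24 in C, 10.13, 9.33, 9.05 and 10.51 in T and 9.55 to 10.79 (median 10.28) in G. Elovl5 was 3.05-fold lower (log2 -1.61, SE 0.25, adjusted p = 0.0114; probe at chr9:77832205-77832264) and Elovl6 3.18-fold lower (log2 -1.67, SE 0.36, adjusted p = 0.0337; probe at chr3:129341248-129341307). The call of Elovl6 was lost when any of C1, C2, C3, T2 or T3 was left out, and with cyclic loess or the processed signal, whereas those of Scd1, Elovl5 and Me1 were kept whichever mouse was left out. With median scaling the 4 calls were lost, at -1.18 for Scd1, -0.63 for Elovl5, -0.71 for Elovl6 and -1.09 for Me1. Within slide 1 alone they were lost too. Within slide 2 alone Scd1 kept its call (adjusted p = 0.0312, limma), and Elovl5, Elovl6 and Me1 lost theirs. Scd1, Elovl5, Elovl6, Me1 and Pmvk stayed below 0 and Scd2 above 0 under all 31 alternatives. The uncalled Fasn, Acly, Pnpla3, Gpam and Insig2 stayed below 0 as well. Some of the 31 cannot move this difference, namely those that leave out a G mouse or change only the variance model or the test. Downstream of fatty acids, the lipid droplet gene Pnpla3 was at 7.59, 8.36 and 6.89 in C, 6.86, 6.63, 6.61 and 6.87 in T and 6.22 to 6.81 (median 6.53) in G. Gpam, which starts glycerolipid synthesis, was at 9.25, 9.57 and 8.60 in C, 8.45, 8.29, 7.88 and 8.33 in T and 7.65 to 8.53 (median 7.99) in G. Both groups lay below C for both genes, with T differences of -0.87 (adjusted p = 0.0829) and -0.90 (adjusted p = 0.0708), and for both genes the C mice were the more widely spread. With median scaling the differences were -0.31 and -0.05, and with the processed signal Pnpla3 was at -1.67. The remaining genes Thrsp, Fads1, Fads2, Mlxipl and Lpin1 lay between -0.46 and -0.06 in T and none was called.

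**Figure D2:**
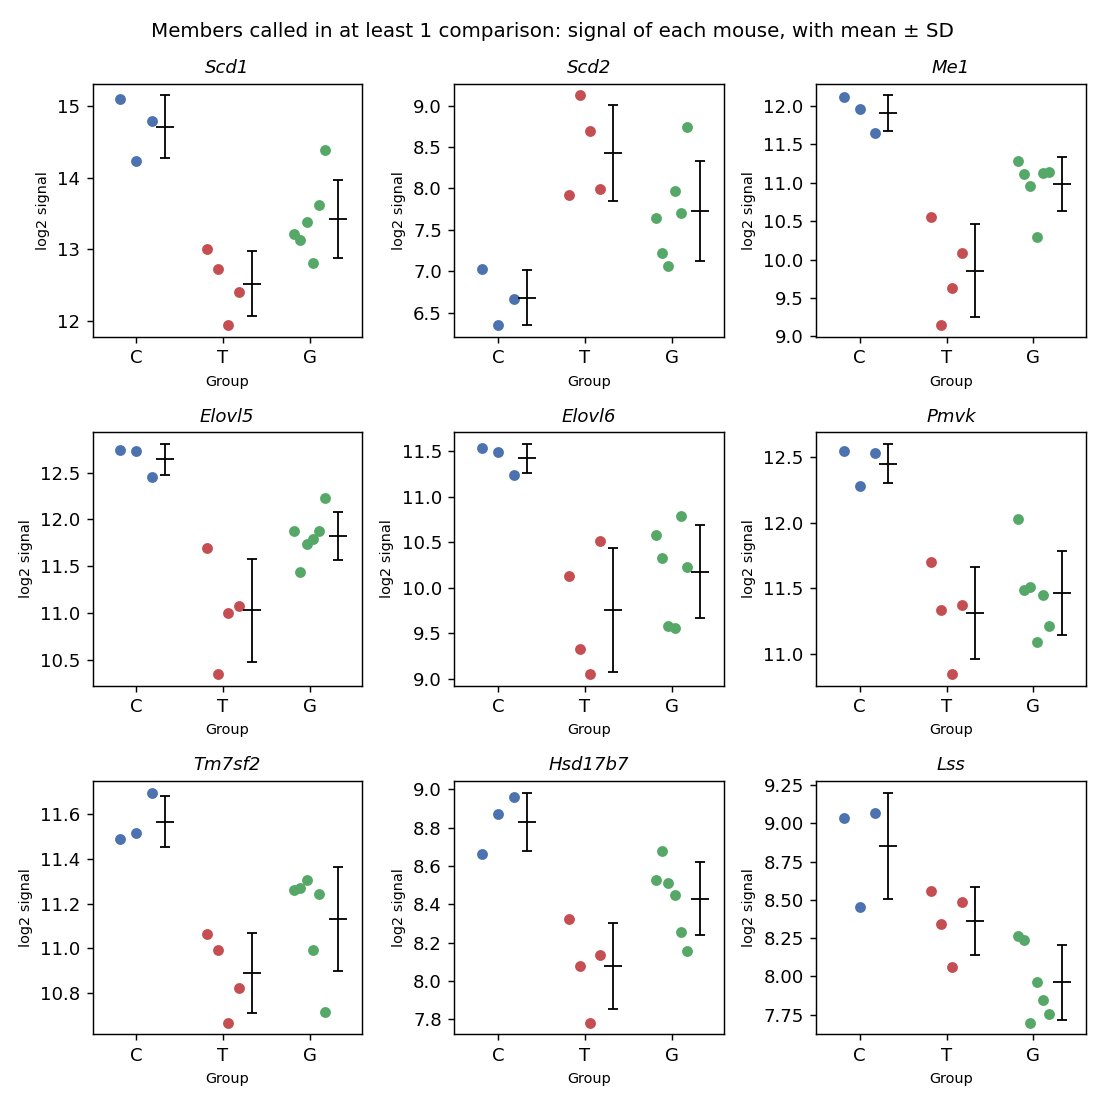
Log2 signal (y axis, a scale of its own for each gene) of each mouse in groups C, T and G for the 9 members called in at least 1 comparison, with mean ± SD in black. The T mice lie below the C mice in 7 panels and above them for Scd2, and for Lss mouse C2 lies within T; with median scaling Tm7sf2, Hsd17b7 and Lss were higher in T (0.29, 0.03 and 0.30).

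The next question was whether the Gas1 plasmid changed these genes in livers with DEN. No member was called in G against T by limma, where 0.127% of all genes were called, and 8 of the 39 had an unadjusted p under 0.05. By the methods' t-test none was called with equal variances or without, where 0.0227% and 0.00454% of all genes were called. At an unadjusted p under 0.05 that test had 6 members, or 5 without equal variances. No share of all genes was taken for these unadjusted counts. Of the 8 in limma, Me1, Scd1, Elovl5 and Hsd17b7 had higher and Lss, Cyp51, Ebp and Scd2 lower values in G, where 4.13% of all genes were higher and 6.73% lower at that threshold. In either direction the 8 were 20.5% of the members, against 16.4% of the genes well above background on every array. Of the 39 log2 changes 22 were below 0, against 53.9% of all genes. Me1 came nearest, with a log2 difference of 1.13 (SE 0.25, adjusted p = 0.102), or 1.20 within slide 1 and 1.07 within slide 2. Its adjusted p was 0.037 with the slide as a term and the RNA code as a random block, 0.0494 without dim probes, and 0.0272 without T1, when Elovl5 also passed at 0.0299. Scd1 differed by 0.90 (SE 0.29, adjusted p = 0.259), Elovl5 by 0.79 (SE 0.21, adjusted p = 0.156) and Scd2 by -0.71 (SE 0.32, adjusted p = 0.444). For none of the 39 did the G and T mice separate fully, against 2.03% of all genes lying wholly lower and 1.09% wholly higher in G. The median difference was 0.08 in the fatty acid branch and -0.16 in the sterol branch, where all genes stood at -0.01, but the slides disagreed on the sign of both, with 0.28 and 0.03 on slide 2 and -0.19 and -0.36 on slide 1. Fasn differed by 0.05 (SE 0.37), Acly by -0.15 (SE 0.26), Sqle by -0.49 (SE 0.31), Srebf1 by -0.38 (SE 0.26) and Insig2 by 0.05 (SE 0.23), all within 2 standard errors of 0.

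The comparisons share mice, those of T in the first 2, those of C and of G with the last, so that each is given by its own values. In G against C, Lss was the only member called (log2 -0.89, SE 0.17, adjusted p = 0.0462, limma), beside 0.427% of all genes and 0.25% called lower. Lss was 1.86-fold lower in G, but the call was lost in 19 of 31 alternatives, among them leaving out C1, C3, T2, T4 or any G mouse. The count was 3 without C3 (0.826% of all genes) or T1 (0.499%), 4 without T3 (0.268%) and 2 without G1 (0.141%) or G6 (0.694%). It was 0 without C1, T2, G2, G3, G4 or G5, where at most 0.368% of all genes were called. With the slide as a term and the RNA code as a random block it was 9 (0.753%). Within slides 1 and 2 it was 0 (0.00454% and 0.0136%). Short of the threshold, 28 members had an unadjusted p under 0.05 and a lower value in G, against 7.02% of all genes, and 1, Scd2, a higher value, against 6.17%. In either direction these were 74.4% of the members, against 20.9% of the genes well above background on every array. Of the 39 log2 changes 37 were below 0, against 51.2% of all genes. The G mice lay wholly below the C mice for 20 members, against 3.01% of all genes and 5.49% of those well above background on every array, and wholly above them for 1, Scd2, against 2.85%. The sterol branch had a median of -0.47, with all 17 genes below 0, and the fatty acid branch of -0.87, but with median scaling these were 0.03 and -0.02 and all genes stood at 0.10, and relative to all genes -0.06 and -0.12. Next to Lss came Fdps at -1.01 (adjusted p = 0.0511), Pmvk at -0.98 (adjusted p = 0.0531), and Acly at -1.42 (adjusted p = 0.0553), all 3 below 0 with median scaling too. Scd2 was at 1.04 (SE 0.35, adjusted p = 0.215).

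**Figure D3:**
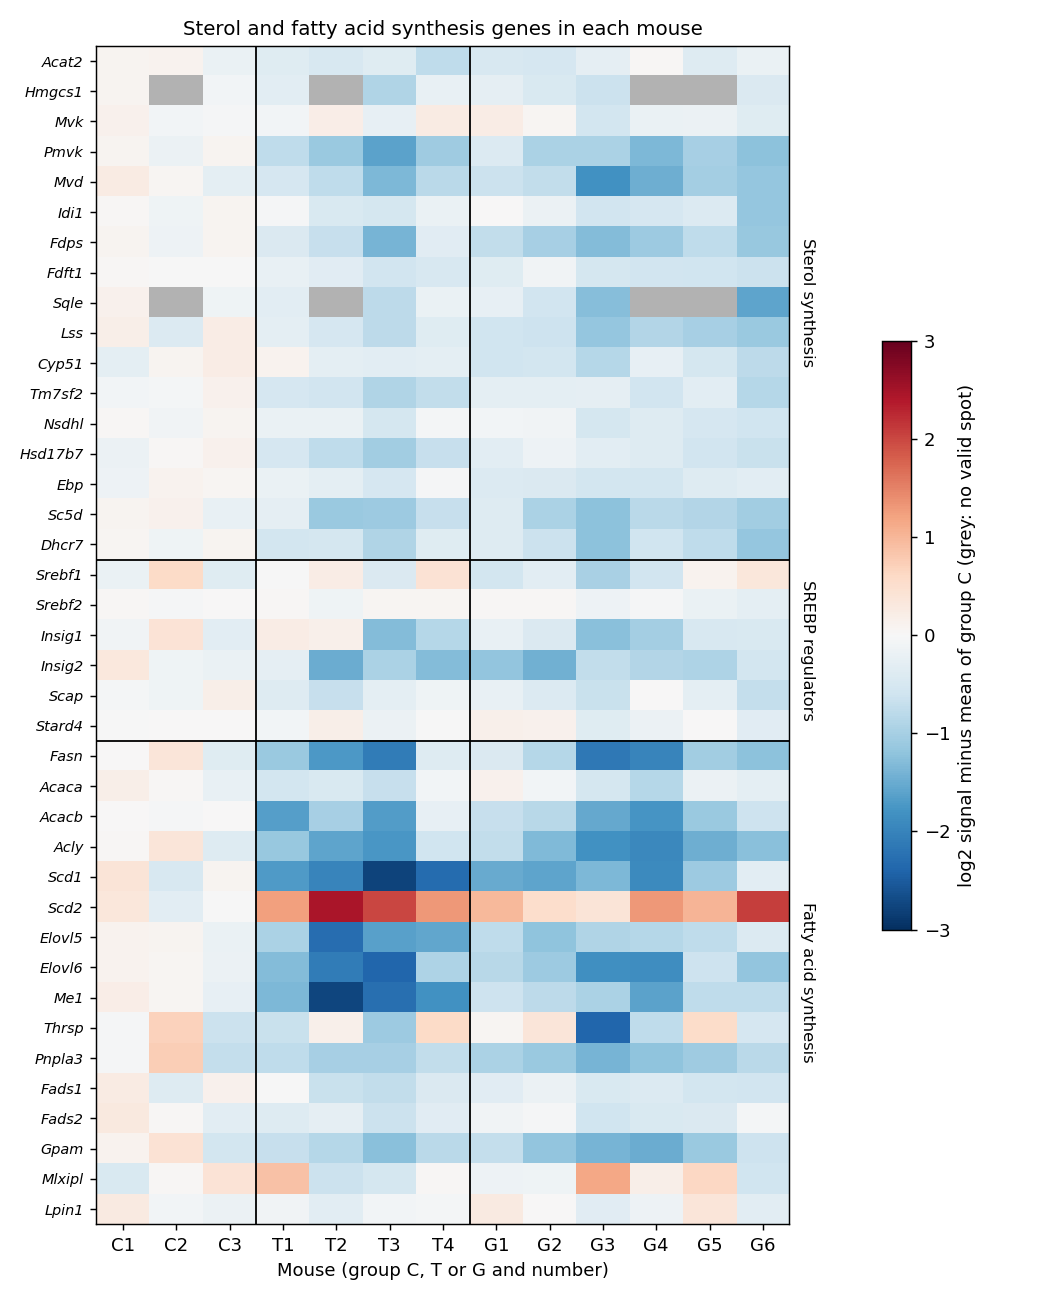
Log2 signal of each member (rows, by set) in each of the 13 mice (columns) minus the mean of group C, in blue below it and red above it, with grey for no valid spot. Most cells of T and G are blue after quantile normalization and Scd2 is red in each of their mice, while with median scaling the sterol median of T was 0.33.

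Seen by mouse, the members were lowest in T3 more often than in any other mouse of group T. In each mouse the difference from the mean of C was averaged over the members with a value in all mice. Over 15 sterol genes it was -0.32, -0.53, -0.81 and -0.45 in T1 to T4 and -0.37, -0.48, -0.81, -0.64, -0.62 and -0.83 in G1 to G6. The C mice lay between -0.05 and 0.02, so that neither group overlapped them after quantile normalization, although the sterol median of T was 0.33 with median scaling. Over the 16 fatty acid genes it was -0.64, -0.94, -1.16 and -0.52 in T and -0.40, -0.59, -1.01, -0.99, -0.48 and -0.47 in G. Here the C mice lay between -0.21 and 0.11, again above all others. Over the 6 regulators, T1 at -0.08 lay within the C mice, which ranged from -0.11 to 0.12. Mouse T3 had the lowest value of its group for 27 of the 37 members and G3 for 16. Without T3 the T median was -0.39 in the sterol and -0.81 in the fatty acid branch. The sterol mean minus the fatty acid mean, a difference within a mouse that a shift of the whole array leaves as it is, was -0.09, -0.15 and 0.24 in C, 0.32, 0.41, 0.35 and 0.08 in T, and -0.36 to 0.35 (median 0.08) in G. C and T overlapped on this measure, and G overlapped both, so that the 2 branches were not told apart by group. The medians of the branches differed by -0.40 in T against C (fatty acid minus sterol) and by -0.14 to -0.59 under the alternatives other than leaving out a mouse.

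**Figure D4:**
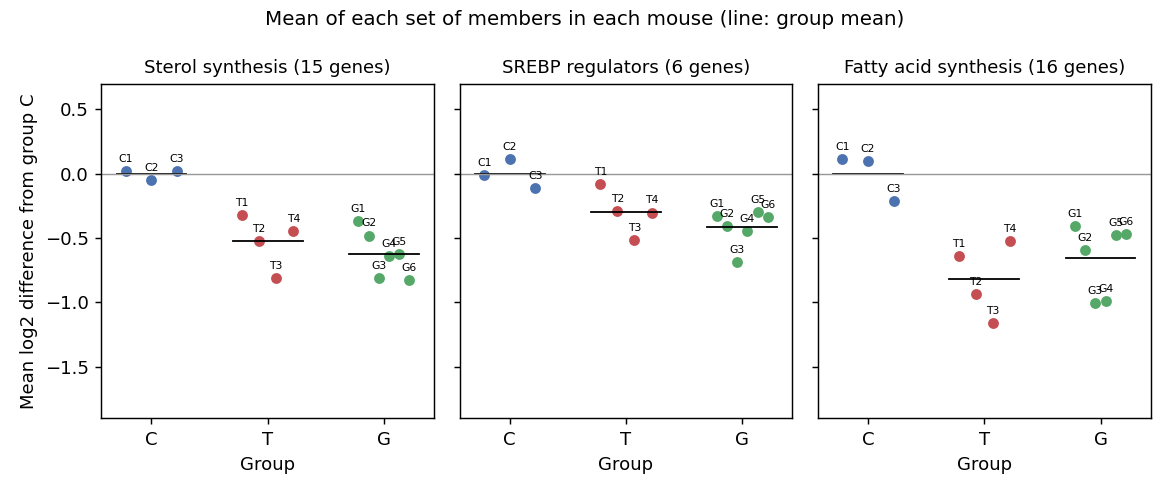
Mean log2 difference from group C over the members of each set (y axis) for each mouse, with the group mean as a line. In the sterol and fatty acid panels all T and G mice lie below the 3 C mice after quantile normalization, the sterol median of T being 0.33 with median scaling, and T and G overlap throughout.

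Other genes of the same routes were looked at by list. Of 19 further genes of fatty acid synthesis, 18 were below 0 in T (median -0.38) and 3 were called lower. These were Acss2, which makes acetyl-CoA from acetate, at -1.78 (adjusted p = 0.00423), Scd3, at -0.90 (adjusted p = 0.00733), and Pgd of the NADPH-yielding pentose phosphate path, at -0.71 (adjusted p = 0.0175). Of 12 further sterol genes, 6 were below 0 in T (median -0.10), and Rdh11, a retinal reductase, alone was called, at -1.06 (adjusted p = 0.0196). Of 7 genes that process or degrade SREBP and its partners, Erlin1 was called higher in T, at 0.65 (adjusted p = 0.0421), and the rest were not called. Of 11 genes of LXR and sterol export, Lpcat3 was called lower, at -0.60 (adjusted p = 0.0236), and Abcg5, which exports sterols into bile, was at 0.65 (adjusted p = 0.0815). Of 20 triglyceride and lipid droplet genes, Mttp, Plin2 and Cideb were called lower in T, at -0.46, -1.07 and -0.50, and Agpat1 higher, at 0.45. In G against T, 17 of these 20 were above 0 and none was called, with Pnpla2, a triglyceride lipase, at 0.53 (adjusted p = 0.0808).

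Some genes of other groups were also called, and their part in the results was not tested. Among 17 clock genes, 4 were called higher in T against C, Dbp at 3.72, Tef at 1.53, Nr1d1 at 0.97 and Nr1d2 at 0.97, with Arntl (Bmal1) at -1.04 and not called. In G against C, 3 clock genes were called higher and Dbp was at 4.29. Of 12 genes that respond to fasting, Pdk4 and Ehhadh were called lower in T, at -1.84 and -1.32. The median of the 12 was -0.18, with Pck1 at 1.23. In G against T, 10 of the 12 were above 0, with a median of 0.72 and none called, and in G against C Pck1 was called higher at 1.96. Of the 3 erythroid genes, the 2 globins Hbb-b1 and Hba-a1 were valid in all mice. Their summed signal was 3204 to 9670 in C, 12511 to 18571 in T and 5108 to 33752 in G, lower in C than in T without overlap. In T, Hbb-b1 was at 1.89 and Hba-a1 at 1.39, while Alas2, outside the sum, was at -0.13, and no erythroid gene was called.

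The label of the tissue was borne out by its markers. All 8 hepatocyte genes were well above background on every array. The signal summed over the 7 valid in all mice was 517991 to 570095 in C, 346030 to 504503 in T and 430968 to 507417 in G, lower in T and G without overlap. This sum is of signals not on the log2 scale, so that Alb and Ttr, the brightest of the list, weigh most in it. The median log2 change of the 8 in T was -0.21. The part of this in the results was not tested. Ttr was called lower in T, at -1.01, and Alb was at -0.37, while Apoa1 at 0.54 and Hnf4a at 0.38 had higher values and were not called, and 3 of the 8 genes were above 0. Of the Kupffer cell genes, Adgre1 (Emr1 on the array) was called higher in T, at 0.31, and the sum, here and below over the genes valid in all mice, was 1652 to 2425 in C, 2005 to 2703 in T and 1983 to 3022 in G. The sums of the cholangiocyte (468 to 471 in C, 422 to 479 in T, 442 to 569 in G), stellate (689 to 900, 616 to 769, 643 to 1326), endothelial (2032 to 2549, 1833 to 2656, 2236 to 2624) and lymphoid lists (959 to 1118, 1040 to 1209, 976 to 1219) overlapped between the groups, and no gene of them was called. Fat cells also express Scd1, Fasn and Acly. Of the 6 adipocyte genes, none was well above background on every array and Lep was on none. The sum, over 4 of the 6, was 258 to 263 in C, 247 to 267 in T and 250 to 305 in G. It leaves out Cfd and Adipoq, which lacked a value in some mice. In G against C these were at 1.00 (SE 0.66) and -0.17 (SE 0.19), and neither was called. Of the 7 genes of exocrine pancreas, Cpa1 and Pnlip were well above background on no array, and the sums of 425 to 448, 423 to 445 and 423 to 452 overlapped.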

How the data were processed

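Liver RNA was measured on 15 single-colour arrays, which were mapped to groups C, T and G by the sample records and averaged to 13 mice. The authors deposited the intensity of every spot and its background, as extracted by Feature Extraction and not normalized between arrays, with flags for outliers and signal above background. The deposited series matrix holds log2 values that the authors corrected with normexp and quantile normalized. Here the intensity was processed in the same way with limma 3.58.1 in R 4.3.3 (normexp offset 50, quantile normalization over 59305 spots, version 1.17.8 of data.table for joins), after outlier-flagged spots (218 to 3692 per array) had been set to missing. No spot was saturated and no filter on dim probes was used. Against these deposited log2 values the median absolute difference was 0.00292. Because quantile normalization makes the arrays alike in distribution, it hides any change common to most genes. Spots of a probe, and centred probes of a symbol, were averaged, and 29522 probes gave 22032 genes.

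Groups were compared with lmFit and eBayes without trend in a single model, with Benjamini-Hochberg adjustment over all genes and a threshold of 0.05. As no source names separate cages or litters, p-values measure the spread between these mice. Arrays have no read depth, and the number of mice limits the precision. Lists were described by counts and medians, with no test over the members. The members, the lists and the order of presentation were chosen with earlier results of these data known. Values in every mouse were given for 8 fixed members, those called, and the 8 others with the lowest unadjusted p, and at most 4 genes of each other list by lowest p. A few genes outside this rule (Arntl, Pnpla2 and the remaining members with a value) were chosen after their values were seen. The study's methods name a t-test for its other measurements and the multtest package for the arrays, which was not run here. The methods' t-test stands here for a test of each gene with 2 tails. Alternatives covered the background correction, normalization, flags, dim probes, probe summary, pairing of arrays, slide, replicate block, variance model, the methods' t-test and each mouse left out. Scaling on the 13155 probes well above background on every array was added after seeing the data. Scripts were tested on simulated data. Probe positions are those of mm9 in the scanner files, for which no annotation was used here, and promoters are from RefSeq, GRCm38.p6. Motifs were counted in Python, and figures were drawn with matplotlib.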

Additional observations from a re-analysis of the deposited data

Results flagged for a closer look

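In groups of 4 or 6 mice, a mouse was marked when its gap to the nearest other mouse took up more of the range of the group than Dixon's 95% critical value allows. Of 52 groups looked at, 2 held such a mouse, and chance marks about 1 in 20. Srebf2 was at 6.33 in mouse T2, with the other T mice between 6.48 and 6.50, all of them near background. Me1 was at 10.30 in mouse G4, with the nearest G mouse at 10.96 and the highest at 11.28.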

How the results depend on the processing

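Members called in T against C numbered 8 (2.38% of all genes), and 2 with median scaling (both higher, 12.9% of all genes). There were 4 with the processed signal (0.254%) and 18 with 15 arrays as separate mice (8.84%). There were 13 with the slide as a term and the RNA code as a random block (3.63%), 1 in slide 1 (0.218%) and 1 in slide 2 (0.0772%). By either form of the methods' t-test there were 0, as over all genes (unadjusted 18 and 17 members, with no share of all genes taken). With scaling on detected probes there were 18, where 61.0% of all genes were called. In G against T there were 0 (0.127% of all genes), and 1 with 15 arrays (1.19%) or with the slide term (0.363%). There was also 1 without dim probes, where 86 genes were called in all. In G against C there was 1 (0.427% of all genes). The count was 0 with median scaling, cyclic loess, the processed signal, a plain mean of probes, either slide alone or either t-test (at most 0.309%). It was 5 with offset 16 (0.454%) or the brightest probe (0.504%), and 9 with the slide term (0.753%). Without dim probes it was 9, where 154 genes were called in all. It was 12 with 15 arrays (1.55%), 3 with eBayes trend and robust (0.34%) and 20 on detected probes (57.7%). The replicate numbers did not pair the mice (r of -0.31 to 0.25 between same-numbered mice). With the replicate block, 8, 0 and 2 members were called (1.22%, 0.0272% and 0.25% of all genes). Those of T against C were without Scd2 and Elovl6 and with Mvd and Sc5d. With median scaling the medians were 0.33 (sterol) and -0.16 (fatty acid) in T against C, and 0.034 and -0.023 in G against C. In G against T the sterol median was -0.33 with the processed signal, -0.36 in slide 1 and 0.029 in slide 2, and the fatty acid median was -0.19 in slide 1. The sterol median of G against C was -0.68 in slide 1. With each mouse left out, the counts ran from 3 to 10 in T against C, 0 to 2 in G against T and 0 to 4 in G against C. The shares of all genes called ran from 0.404% to 3.45%, 0.0227% to 0.576% and 0% to 0.826%. The sterol medians then ran from -0.56 to -0.39, -0.23 to -0.08 and -0.56 to -0.46, and the fatty acid medians from -1.15 to -0.67, -0.0045 to 0.20 and -0.98 to -0.74.

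Single genes turned in sign as follows, where the value was called or moved by over 2 standard errors. Another 47 values changed sign by less. With median scaling, T against C gave Hmgcs1 0.34, Mvd 0.021, Fdps 0.27, Sqle 0.38, Lss 0.30, Tm7sf2 0.29, Hsd17b7 0.032, Ebp 0.78, Sc5d 0.18, Dhcr7 0.24 and Insig1 0.52, G against T gave Hmgcs1 -0.31, and G against C gave Hmgcs1 0.034, Tm7sf2 0.41, Hsd17b7 0.32, Ebp 0.42, Srebf1 0.39, Insig1 0.21 and Elovl5 0.030. Srebf2 in T against C was -0.43 with the processed signal and -0.62 on detected probes, where all genes moved by -0.40 and -0.65, and Ebp was 0.0062 on detected probes. In slide 1, G against T gave Hmgcs1 -0.40 and Fasn -0.73. Of 2232 values for single genes, 1969 kept their direction and side of the threshold, 86 lost a call, 106 gained one and 24 turned. The cause was not tested. Signal over background limits Srebf2, near background in every group, Scd2, dim in C, and 1 probe of Pnpla3, dim in T and G.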
